A study of Mus musculus with 6 samples.

Results

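The genes described here encode 10 transcription factors that maintain mesenchymal identity or drive epithelial to mesenchymal transition (EMT), the process by which epithelial cells lose their junctions and become migratory. They were chosen by name, as every entry of the expression table whose symbol was *Twist1*, *Twist2*, *Snai1*, *Snai2*, *Zeb1*, *Zeb2*, *Prrx1*, *Prrx2*, *Tcf21* or *Msx1*. These genes and the lists below were chosen with earlier results of these data known. Their counts beside those of all tested genes are therefore descriptive only. Of the 10 genes, 9 were among the 18112 entries of the table used here, and the expression of *Tcf21* was not analysed here. All 9 were among the 12565 genes whose mean over the libraries reached 0.5 FPKM, the level required for a test. FPKM scales the fragments of a gene to the length of its transcript and to the size of its library, so that levels of different genes can be set side by side.

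RNA-seq was performed on primary vascular smooth muscle cells (VSMCs) grown from the medial layer of the thoracic aorta, in 3 libraries of *Smyd2 fl/fl* and 3 of *Smyd2 SMC-/-*. The comparison asked which genes change in VSMCs when SMYD2, a lysine methyltransferase of histones and other proteins, is lost. The control mice, C57BL/6 in the labels, were littermates homozygous for the floxed *Smyd2* allele. The knockout mice carried the same floxed alleles together with *Tagln-Cre*, in which the SM22α promoter drives the recombinase, so that cells without SM22α promoter activity would keep *Smyd2*. The methods give mice 8 to 10 weeks old and cells at passage 4, starved overnight, whereas the labels give passage 6 in 10% FBS and another extraction kit. Nothing in the labels says that the libraries of a group came from separate animals or cultures, so p-values measure the spread between these libraries, which may be technical.

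Each of these factors binds DNA, and several of them repress epithelial genes or activate mesenchymal ones. TWIST proteins are basic helix-loop-helix factors that pair with E proteins on E-boxes, SNAIL and ZEB proteins are zinc finger repressors of E-cadherin and other junction genes, and PRRX and MSX proteins are homeobox factors of embryonic mesenchyme and progenitor cells. In the vessel wall such factors are known from smooth muscle progenitors and from smooth muscle cells that leave the contractile state.

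Values of single libraries are listed in the order of replicates 1, 2 and 3, with *Smyd2 fl/fl* as control and *Smyd2 SMC-/-* as knockout. *Smyd2* (NCBI Gene 226830) served as a check of the labels, and its level was 7.87, 3.10 and 3.0 FPKM in the control libraries and 1.67, 0.40 and 0.80 FPKM in the knockout libraries. All knockout libraries lay below all control libraries, with some *Smyd2* RNA left in each. The log2 fold change was −1.48 ± 0.389 (SE), where limma gave an adjusted p of 0.105, or 0.0189 once same-numbered libraries were paired by a block (below, the replicate block). It was −1.35 in replicates 2 and 3 alone (adjusted p = 0.00126 in limma).

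The replicate 1 libraries of both genotypes stood apart from replicates 2 and 3. In a principal component analysis of the tested genes, the first component held 50.2% of the variance, with loadings of 0.69 and 0.30 for the replicate 1 libraries of *Smyd2 fl/fl* and *Smyd2 SMC-/-* and between −0.46 and −0.03 for the others. Tests of named genes and counts over lists are therefore given for all 6 libraries and for replicates 2 and 3 alone. Deviations from the group mean correlated at 0.61, 0.46 and 0.53 between same-numbered libraries of the genotypes, but replicates 2 and 3 with crossed numbers reached 0.46 and 0.44. The values therefore set replicate 1 apart and do not tell replicate 2 from replicate 3, and a block of replicate 1 against the others was fitted beside the block by number. Approximate depths, read from the steps between low FPKM values, were 18850000, 20300000 and 20150000 fragments in *Smyd2 fl/fl* and 17500000, 19800000 and 19600000 fragments in *Smyd2 SMC-/-*. Differences were tested with limma on log2(FPKM + 1), a scale on which differences of low genes come out smaller than their fold, with Benjamini-Hochberg adjustment over all tested genes.

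In *Smyd2 SMC-/-* VSMCs *Snai1* was lower, and *Twist2* was lower and *Msx1* was higher once the replicate number was used as a block, whereas *Twist1*, *Zeb1*, *Zeb2* and *Prrx1* passed the test neither with the block nor in replicates 2 and 3 alone. Of the 9 factors, 1 was lower and 0 were higher at an adjusted p under 0.05 in limma, where 152 of all tested genes (1.21%) were lower and 154 (1.23%) were higher. After rescaling to TPM the numbers for all genes were 99 lower and 247 higher. With the replicate block, 2 factors were lower and 1 was higher in limma, beside 5.72% and 4.72% of all tested genes. The higher one, *Msx1*, had a control mean of 0.37 FPKM and was tested only because of its level in the knockout libraries. With replicate 1 against the others as the block, *Snai2* was lower as well (3 lower and 1 higher), beside 11.1% and 9.17% of all tested genes. In replicates 2 and 3 alone 4 were lower and 1 was higher, beside 17.2% and 11.9% of all tested genes. The groups did not overlap for 3 factors that were lower and 1 that was higher, against 15.0% and 13.1% of all tested genes. The median log2 fold change of the 9 factors was −0.28, and that of all tested genes was −0.02 (−0.27 and −0.06 in replicates 2 and 3 alone). In bulk RNA, fewer cells of a type and less RNA per cell cannot be told apart.

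**Figure D1:**
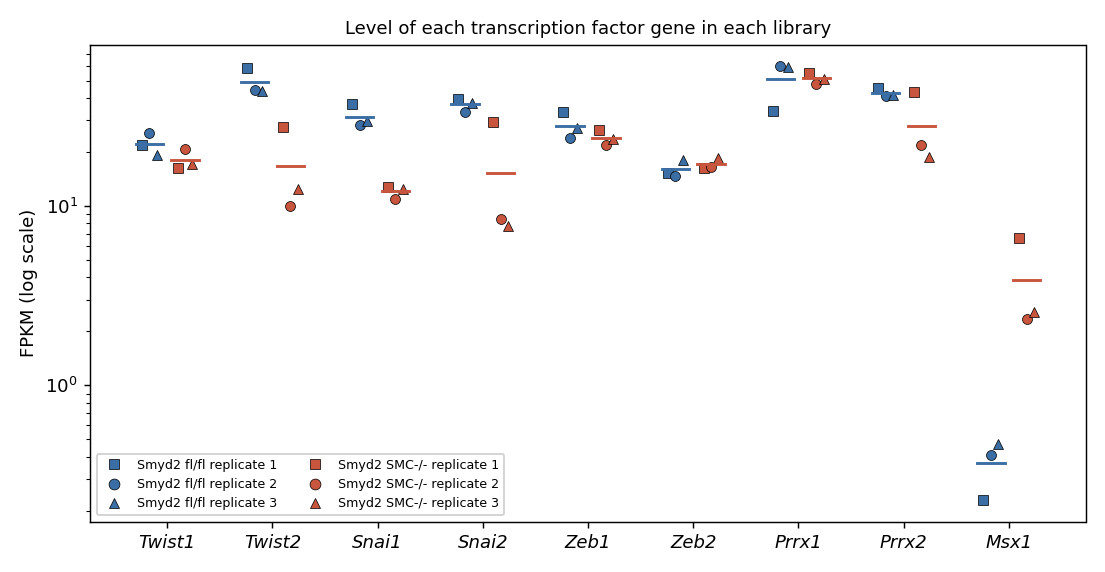
FPKM (log scale) of the 9 transcription factor genes in each library, with *Smyd2 fl/fl* in blue and *Smyd2 SMC-/-* in red, symbols for the replicate number and a line at each group mean. *Twist2*, *Snai1* and *Snai2* lie lower in all 3 knockout libraries than in any control library, and *Msx1* lies at 0.47 FPKM or less in the controls and at 2.34 FPKM or more in the knockouts.

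The SNAIL factors bind the E-box CACCTG and are best known for silencing the E-cadherin gene. *Snai1* (NCBI Gene 20613), whose protein has a very short half-life, had 36.8, 28.1 and 29.6 FPKM in the control libraries and 12.8, 11 and 12.5 FPKM in the knockout libraries. The 3 knockout libraries were close to one another and all lay below the lowest control library. The mean was 31.5 ± 4.66 FPKM in the control libraries and 12.1 ± 0.934 FPKM in the knockout libraries (SD, n = 3 each), or 2.61-fold lower. *Snai1* fell by 1.31 on the log2 scale (SE 0.147, adjusted p = 0.0123 in limma, lower in 3 of 3 pairs, or 0.00963 for the block), and in replicates 2 and 3 alone by 1.23 (adjusted p = 0.000264). The within-pair differences were −1.46, −1.28 and −1.18. Leaving out *Smyd2 fl/fl* replicate 2 or 3, or *Smyd2 SMC-/-* replicate 2 or 3, gave limma's adjusted p as 0.0611, 0.0783, 0.0775 and 0.0744, with log2 fold changes of −1.38, −1.35, −1.25 and −1.33.

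*Snai2* (NCBI Gene 20583), or Slug, which marks migrating neural crest and is widely expressed in fibroblasts, had 39.4, 33.6 and 37.3 FPKM in the control libraries and 29.4, 8.48 and 7.71 FPKM in the knockout libraries. The groups did not overlap, but knockout replicate 1 lay far closer to the controls than to the other knockout libraries. Its log2 fold change was −1.47 ± 0.468 (SE), with an adjusted p of 0.153 in limma, 0.0651 with the replicate block and 0.0323 with replicate 1 against the others as the block. In replicates 2 and 3 alone it was −2.0 (adjusted p = 3.2e-05 in limma), and without *Smyd2 SMC-/-* replicate 1 it was −2.05 (adjusted p = 0.00384). With any other single library left out, limma's adjusted p for *Snai2* was between 0.25 and 0.404. The replicate 1 pair differed by −0.41 and the other pairs by −1.87 and −2.14, so the size of the difference depended on the replicate.

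*Twist2* (NCBI Gene 13345), or Dermo1, a factor of dermal and other connective tissue precursors, had 58.5, 44.4 and 43.8 FPKM in the control libraries and 27.4, 10.0 and 12.4 FPKM in the knockout libraries. It was lower in every knockout library, and within each genotype the replicate 1 library had the highest value. The mean was 48.9 ± 8.28 FPKM in the control libraries and 16.6 ± 9.42 FPKM in the knockout libraries (SD, n = 3 each), or 2.94-fold lower. The log2 fold change was −1.61 ± 0.355 (SE), with an adjusted p of 0.0704 in limma and 0.0216 with the replicate block. In replicates 2 and 3 alone it was −1.89 (adjusted p = 6.45e-05 in limma), and without *Smyd2 SMC-/-* replicate 1 it was −2.02 (adjusted p = 0.0079). With any other single library left out, limma's adjusted p for *Twist2* was between 0.134 and 0.254. An antisense transcript, *Gm29100*, overlaps *Twist2* exons in the GENCODE annotation, and since the strand setting of the quantification is not given in the sources used here, reads of the gene and its antisense partner cannot be told apart.

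*Twist1* (NCBI Gene 22160), the paralogue that is required for cranial mesenchyme, had 21.8, 25.6 and 19.2 FPKM in the control libraries and 16.3, 20.9 and 17.2 FPKM in the knockout libraries. The ranges overlapped, with control replicate 3 below knockout replicate 2. For *Twist1* the log2 fold change was −0.28 (95% interval −0.66 to 0.11, adjusted p = 0.394 in limma), and −0.21 in replicates 2 and 3 alone (adjusted p = 0.336).

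*Msx1* (NCBI Gene 17701), a homeobox repressor that keeps progenitor cells undifferentiated and responds to BMP signals, was the one factor called higher with the replicate block. It had 0.23, 0.41 and 0.47 FPKM in the control libraries, about 8, 15 and 17 fragments, and 6.67, 2.34 and 2.57 FPKM in the knockout libraries, about 214, 85 and 92 fragments. Knockout replicate 1 had the highest level, and the lowest knockout library was still above every control library. On the FPKM scale the means were 0.37 ± 0.125 and 3.86 ± 2.44 (SD, n = 3 each), or 10.4-fold higher. That fold was raised by knockout replicate 1, and the other knockout libraries lay below the knockout mean. *Msx1* had a log2 fold change of 1.72 ± 0.339 (SE), with an adjusted p of 0.058 in limma and 0.0407 with the replicate block, and it was higher in 3 of 3 pairs. In replicates 2 and 3 alone it was 1.26 (adjusted p = 0.000796 in limma), and without *Smyd2 SMC-/-* replicate 1 it was 1.34 (adjusted p = 0.0182). With any other single library left out, limma's adjusted p for *Msx1* was between 0.105 and 0.188. The pseudocount weighs on so low a gene, and with 0.1 FPKM in place of 1 the log2 fold change was 2.95 (adjusted p = 0.0387 in limma).

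The promoters of the 3 genes called with the replicate block are shown because 2 of them hold an E-box of the kind bound by SNAIL and ZEB factors. Each sequence is the 250 bases before the start of the gene in RefSeq (GRCm38.p6), 5′ to 3′ on the strand of the gene, with the E-box in capitals: *Snai1* at chr2:167537945-167538194 (plus strand), *Twist2* at chr1:91801211-91801460 (plus strand) and *Msx1* at chr5:37824586-37824835 (minus strand).
Snai1: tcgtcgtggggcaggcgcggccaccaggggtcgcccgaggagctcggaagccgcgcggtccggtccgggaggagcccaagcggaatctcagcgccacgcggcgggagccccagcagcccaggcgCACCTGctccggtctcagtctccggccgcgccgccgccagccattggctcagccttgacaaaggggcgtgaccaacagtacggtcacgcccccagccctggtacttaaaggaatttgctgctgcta
Twist2: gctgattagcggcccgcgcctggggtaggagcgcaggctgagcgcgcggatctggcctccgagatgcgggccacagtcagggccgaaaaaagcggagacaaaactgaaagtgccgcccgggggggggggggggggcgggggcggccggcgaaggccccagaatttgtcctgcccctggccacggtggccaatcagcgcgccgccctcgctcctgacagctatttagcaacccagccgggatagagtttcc
Msx1: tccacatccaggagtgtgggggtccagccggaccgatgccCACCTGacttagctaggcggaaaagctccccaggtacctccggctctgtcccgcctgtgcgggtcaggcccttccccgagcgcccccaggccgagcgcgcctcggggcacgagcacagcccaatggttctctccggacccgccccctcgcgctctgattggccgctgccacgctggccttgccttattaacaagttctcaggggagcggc

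RefSeq promoters were matched by symbol for 8 of the 10 genes. Windows of the same 250 bases were searched on both strands for CACCTG (its reverse complement being CAGGTG), for the general E-box CANNTG, which includes CACCTG, and for the CArG box of SRF. CACCTG was found in *Snai1*, 126 bases before the start, and in *Msx1*, 210 bases before it, and in 0 of the windows of the other 6 genes. Of 32851 RefSeq promoter windows, 17.2% held CACCTG, 66.2% held CANNTG and 1.47% held a CArG box. No further CANNTG and no CArG box was found in the windows of the 8 genes, which says only that these letters are not in them.

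The ZEB factors combine clusters of zinc fingers with a homeodomain and bind paired E-boxes. *Zeb1* (NCBI Gene 21417) had 33.2, 23.8 and 27.2 FPKM in the control libraries and 26.4, 21.9 and 23.7 FPKM in the knockout libraries. *Zeb2* (NCBI Gene 24136), which also binds SMAD proteins, had 15.2, 14.7 and 18.1 FPKM in the control libraries and 16.2, 16.4 and 18.5 FPKM in the knockout libraries. For both genes the groups overlapped and no pair differed by more than 0.32 on the log2 scale. Their log2 fold changes were −0.21 (95% interval −0.59 to 0.17, adjusted p = 0.531 in limma) and 0.09 (−0.23 to 0.42, adjusted p = 0.77), and in replicates 2 and 3 alone −0.15 (adjusted p = 0.324) and 0.09 (adjusted p = 0.621). Annotated antisense transcripts, *Gm10125* at *Zeb1* and *Zeb2os* and *Gm27761* at *Zeb2*, overlap their exons, as does *Mir5129* on the strand of *Zeb2*.

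The paired-related homeobox genes pattern mesenchyme of the limbs, face and great vessels. *Prrx1* (NCBI Gene 18933), with the highest mean of the 9 factors in both groups, had 34.0, 60.0 and 59.6 FPKM in the control libraries and 55.4, 47.7 and 50.9 FPKM in the knockout libraries. Control replicate 1 had the lowest value of all libraries, below *Twist2*, *Prrx2*, *Snai2* and *Snai1* in that library, while the other controls were the highest, and the groups overlapped. Over all libraries the log2 fold change was 0.05 ± 0.236 (SE, adjusted p = 0.942 in limma), and its direction turned to −0.27 in replicates 2 and 3 alone (adjusted p = 0.0744), since the replicate 1 pair differed by 0.69 and the other pairs by −0.32 and −0.22.

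*Prrx2* (NCBI Gene 20204), its close relative, had 45.2, 41.0 and 41.3 FPKM in the control libraries and 43.2, 22.0 and 18.7 FPKM in the knockout libraries. Knockout replicate 1 lay within the control range and the other knockout libraries were well below it. The log2 fold change was −0.68 (95% interval −1.39 to 0.04, adjusted p = 0.268 in limma, and 0.108 when blocked by replicate). In replicates 2 and 3 alone it was −0.99 (adjusted p = 0.000788 in limma), and without *Smyd2 SMC-/-* replicate 1 it was −1.03 (adjusted p = 0.0182). With any other single library left out, limma's adjusted p for *Prrx2* was between 0.388 and 0.605.

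**Figure D2:**
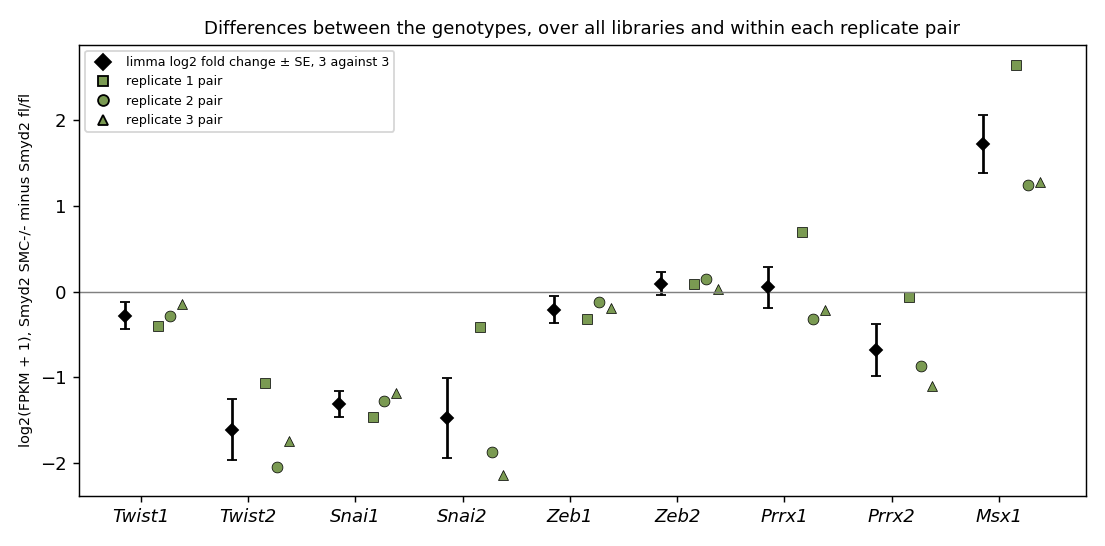
Difference in log2(FPKM + 1) between *Smyd2 SMC-/-* and *Smyd2 fl/fl* for the 9 genes, as limma's log2 fold change with its standard error (black) and within each replicate pair (green symbols). The 3 pairs of *Snai1* lie between −1.46 and −1.18, those of *Snai2* between −2.14 and −0.41, and the pairs of *Prrx1* lie on both sides of 0.

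Set in order of their mean level in *Smyd2 fl/fl*, the factors ran from *Prrx1* (51.2 ± 14.9 FPKM, SD, n = 3) through *Twist2*, *Prrx2* (42.5 ± 2.29), *Snai2* (36.8 ± 2.93), *Snai1*, *Zeb1* (28.1 ± 4.72), *Twist1* (22.2 ± 3.18) and *Zeb2* (16.0 ± 1.83) to *Msx1*. *Prrx1* and *Twist2*, *Twist2* and *Prrx2*, and *Snai1* and *Zeb1* were neighbours whose means differed by no more than the larger of their SDs. In *Smyd2 SMC-/-* the order began with *Prrx1* (51.3 ± 3.84), followed by *Prrx2* (28.0 ± 13.3), *Zeb1* (24.0 ± 2.26), *Twist1* (18.1 ± 2.39), *Zeb2* (17.1 ± 1.27), *Twist2*, *Snai2* (15.2 ± 12.3), *Snai1* and *Msx1*. There the neighbours from *Twist1* to *Snai1* did not differ beyond their spread, nor did *Prrx2* and *Zeb1*. The summed level of the 9 genes was 284, 272 and 277 FPKM in the control libraries and 234, 161 and 164 FPKM in the knockout libraries.

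The makeup of each paralogue pair was compared within libraries. *Twist2* made up 72.8%, 63.5% and 69.5% of the summed FPKM of *Twist2* and *Twist1* in the controls, and 62.7%, 32.5% and 41.9% in the knockouts. Every knockout library had a smaller share than every control library, and the log2 ratio of *Twist2* to *Twist1* differed by −1.34 (two-sided exact permutation p = 0.1, the smallest that 3 against 3 allow), or by −1.67 in replicates 2 and 3. The share of *Snai1* in *Snai1* and *Snai2* was 48.3%, 45.5% and 44.2% in the controls and 30.2%, 56.5% and 61.8% in the knockouts, so that knockout replicate 1 moved one way and knockout replicates 2 and 3 the other (log2 ratio 0.16, exact permutation p = 0.9, and 0.77 in replicates 2 and 3). For *Prrx2* of *Prrx2* and *Prrx1* the mean share was 46.2 ± 9.40% in the controls and 34.1 ± 8.77% in the knockouts, and for *Zeb1* of *Zeb1* and *Zeb2* it was 63.5 ± 4.46% and 58.4 ± 3.12% (SD, n = 3 each, exact permutation p = 0.3 for both). The log2 ratios of these 2 pairs differed by −0.73 and −0.30, and by −0.72 and −0.25 in replicates 2 and 3. Both shares were lower in each knockout library than in the control of the same number. The study names no pairing, however, and the shares were not tested in pairs. The share of *Prrx2* was 57.1%, 40.6% and 41.0% in the controls and 43.8%, 31.5% and 26.9% in the knockouts. That of *Zeb1* was 68.6%, 61.9% and 60.1% in the controls and 62.0%, 57.1% and 56.1% in the knockouts. With 3 libraries against 3, none of the 4 pairs could reach an exact permutation p under 0.1.

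**Figure D3:**
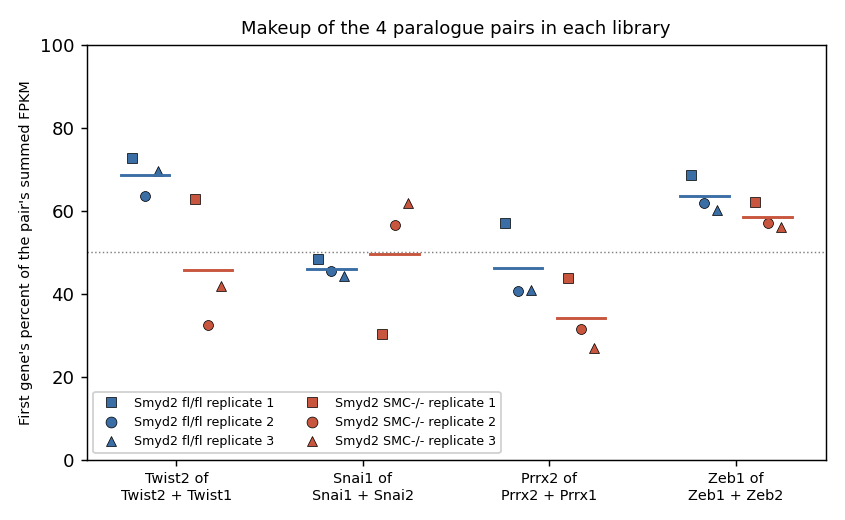
Percent of the summed FPKM of each paralogue pair that came from the first gene, in each library, with a line at the group mean and a dotted line at 50%. The share of *Twist2* runs from 63.5% to 72.8% in *Smyd2 fl/fl* (blue) and from 32.5% to 62.7% in *Smyd2 SMC-/-* (red), and the other pairs overlap between the groups.

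A list of 37 related factors held other members of these families and further regulators of mesenchyme, of which 29 were in the table and 16 were tested. At an adjusted p under 0.05 in limma 0 were called, with 6 (37.5%) at an unadjusted p under 0.05, where 2556 of all tested genes (20.3%) were. With the replicate block 3 were lower and 2 were higher, beside 5.72% and 4.72% of all tested genes, and in replicates 2 and 3 alone 7 were lower and 3 were higher, beside 17.2% and 11.9%. The median log2 fold change of the 16 genes was −0.18 (−0.22 in replicates 2 and 3 alone), beside −0.02 for all tested genes. *Sox9*, a regulator of cartilage and of neural crest, had 20.7, 15.5 and 17.1 FPKM in the control libraries and 10.3, 6.22 and 8.82 FPKM in the knockout libraries. It was lower in all knockout libraries, with a log2 fold change of −1.01 (adjusted p = 0.0615 in limma, 0.0183 with the replicate block). The difference was −1.04 in replicates 2 and 3 alone (adjusted p = 0.00325 in limma) and −1.15 without *Smyd2 SMC-/-* replicate 1 (adjusted p = 0.0392). With any other single library left out, limma's adjusted p for *Sox9* was between 0.108 and 0.218.

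*Hmga2*, a chromatin protein that binds and activates *Snai1* and *Twist1* downstream of TGF-β in epithelial cells, had 53.0, 16.4 and 17.0 FPKM in the control libraries and 9.99, 5.37 and 7.28 FPKM in the knockout libraries. The replicate 1 library of the controls was the highest by far, and the groups did not overlap (log2 fold change −1.62, adjusted p = 0.126 in limma and 0.0282 with the replicate block, and −1.28 with an adjusted p of 0.000813 in replicates 2 and 3 alone). *Shox2*, a homeobox gene of limb and sinus node, had 4.87, 4.12 and 3.55 FPKM in the control libraries and 2.36, 1.04 and 0.63 FPKM in the knockout libraries. It was lower in every knockout library (log2 fold change −1.20, adjusted p = 0.0836 in limma, 0.0303 with the block), by −1.40 in replicates 2 and 3 alone (adjusted p = 0.00107) and by −1.50 without *Smyd2 SMC-/-* replicate 1 (adjusted p = 0.0202). With any other single library left out, limma's adjusted p for *Shox2* was between 0.156 and 0.271. In the other direction, the blocked fit called *Foxc2*, a forkhead factor of vessels and mesenchyme (log2 fold change 0.56, adjusted p = 0.222 in limma and 0.0437 with the block), and *Wt1*, a factor of mesothelium and epicardium (0.81, 0.369 and 0.033). Without replicate 1 of either group these were 0.59 (adjusted p = 0.00799 in limma) and 0.81 (adjusted p = 0.00429). With 1 library left out *Foxc2* ran from 0.41 to 0.74 and *Wt1* from 0.43 to 1.2, and neither passed the test in these fits. By their mean over the 6 libraries, the most abundant genes of the list besides *Hmga2* were *Sox4* (115 ± 42.2 and 126 ± 21.0 FPKM, SD, n = 3 each) and *Tead1* (52.1 ± 9.67 and 55.1 ± 4.67 FPKM), with log2 fold changes of 0.20 and 0.09 and an adjusted p of 0.788 and 0.817 in limma. The direction of *Sox4* turned in replicates 2 and 3 alone (−0.23, adjusted p = 0.3), where *Tead1* was at 0.27 (adjusted p = 0.178).

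Proteins that act with these factors formed a list of 35 genes: the E proteins and ID inhibitors of TWIST, the corepressors of SNAIL and ZEB, SMADs, ubiquitin ligases and homeobox partners, of which 34 were tested. In limma 0 were called at an adjusted p under 0.05, with 8 (23.5%) at an unadjusted p under 0.05, near the 20.3% of all tested genes. With the replicate block 2 were lower and 0 were higher (all tested genes, 5.72% and 4.72%), and in replicates 2 and 3 alone 7 were lower and 3 were higher (all tested genes, 17.2% and 11.9%). Their median log2 fold change was −0.10 (−0.10 in replicates 2 and 3 alone), and 0.02 after rescaling to TPM. *Hdac2*, a histone deacetylase recruited by SNAI1, had 95.8, 76.0 and 68.3 FPKM in the control libraries and 68.5, 43.4 and 45.9 FPKM in the knockout libraries. Its highest knockout value just passed its lowest control value (log2 fold change −0.61, adjusted p = 0.19 in limma and 0.0362 with the block, and −0.68 with an adjusted p of 0.00337 in replicates 2 and 3 alone). *Usp7*, a deubiquitinase, differed by −0.45 on the log2 scale (adjusted p = 0.178 in limma and 0.0498 with the block), and by −0.40 in replicates 2 and 3 alone (adjusted p = 0.0193). The ID proteins hold E proteins away from DNA, and *Id3* (130 ± 36.6 and 119 ± 31.0 FPKM) and *Id1* (70.6 ± 9.85 and 50.7 ± 24.1 FPKM, SD, n = 3 each) were with *Hdac2* the most abundant genes of the list by their mean over all libraries, with log2 fold changes of −0.12 and −0.59 and an adjusted p of 0.87 and 0.453 in limma. Without replicate 1 of either group *Id3* was at −0.13 (adjusted p = 0.492) and *Id1* at −0.25 (adjusted p = 0.21), and with 1 library left out *Id1* ran from −0.90 to −0.14.

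Genes of epithelial junctions and keratins, which SNAIL and ZEB factors repress in epithelial cells, formed a list of 28, of which 27 were in the table and 10 were tested. Of the list, 15 lay under 1 FPKM in all 6 libraries, *Epcam* and *Krt8* among them. In limma 2 were lower and 0 were higher at an adjusted p under 0.05 (all tested genes, 1.21% and 1.23%), with a median log2 fold change of −0.31. With the replicate block 4 were lower and 0 were higher (5.72% and 4.72%). Replicates 2 and 3 alone gave 5 lower and 0 higher (17.2% and 11.9%), with a median of −0.30. *Krt19*, a keratin of simple epithelia and mesothelium, had 47.8, 57.6 and 54.3 FPKM in the control libraries and 8.71, 20.5 and 8.53 FPKM in the knockout libraries. All knockout libraries lay far below the lowest control value (log2 fold change −2.10 ± 0.325 SE, adjusted p = 0.0317 in limma, and −1.99 in replicates 2 and 3 alone, adjusted p = 0.0494). The call of *Krt19* was lost without *Smyd2 fl/fl* replicate 1, 2 or 3 or *Smyd2 SMC-/-* replicate 3 (adjusted p = 0.0607, 0.142, 0.144 and 0.138).

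*Pkp2*, a plakophilin of desmosomes and cardiac junctions, had 6.5, 4.38 and 4.17 FPKM in the control libraries and 1.84, 1.67 and 1.64 FPKM in the knockout libraries. The knockout libraries were nearly equal and all lower (log2 fold change −1.13 ± 0.194 SE, adjusted p = 0.0424 in limma, and −0.99 in replicates 2 and 3 alone, adjusted p = 0.00191). Its call was lost without replicate 2 or 3 of *Smyd2 fl/fl* (adjusted p = 0.153 and 0.143) or of *Smyd2 SMC-/-* (0.158 and 0.186). It was also lost after rescaling to TPM (log2 fold change −1.22, adjusted p = 0.0525 in limma). Without a filter on low FPKM both *Pkp2* and *Krt19* lost their call. *Jup*, or plakoglobin, the most abundant gene of the list (95.5 ± 15.3 and 67.5 ± 8.12 FPKM, SD, n = 3 each), and *Cldn1*, a tight junction claudin, were lower with the block (adjusted p = 0.0439 and 0.0475 in limma, or 0.178 and 0.311 without it). Their log2 fold changes were −0.49 and −0.70, and −0.53 and −0.69 in replicates 2 and 3 alone (adjusted p = 0.00883 and 0.0121 in limma). With 1 library left out *Jup* ran from −0.63 to −0.39 and *Cldn1* from −0.98 to −0.42. *Tjp1* (26.2 ± 6.09 and 24.6 ± 5.83 FPKM) differed by −0.09 on the log2 scale (adjusted p = 0.881 in limma), and by −0.07 in replicates 2 and 3 alone (adjusted p = 0.742). E-cadherin itself, *Cdh1*, chosen for mention once its values had been seen, stood at 1.02, 10.7 and 12.4 FPKM in the control libraries and 0.86, 6.73 and 4.4 FPKM in the knockout libraries. It was near 1 FPKM in the replicate 1 libraries of both genotypes (log2 fold change −0.68, adjusted p = 0.721 in limma and 0.143 with the block, and −0.96 with an adjusted p of 0.00806 in replicates 2 and 3 alone). With 1 library left out it ran from −1.56 to −0.08.

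Mesenchymal genes, covering matrix, matrix enzymes, adhesion and cytoskeleton, formed a list of 32, of which 30 were tested. In limma 0 were lower and 2 were higher at an adjusted p under 0.05 (all tested genes, 1.21% and 1.23%), with a median log2 fold change of 0.01 (0.13 after rescaling to TPM). With the replicate block 0 were lower and 5 were higher (5.72% and 4.72%). With replicate 1 against the others as the block 3 were lower and 7 were higher (11.1% and 9.17%), and in replicates 2 and 3 alone 10 were lower and 6 were higher (17.2% and 11.9%, median −0.03). *Plod2*, the lysyl hydroxylase of collagen telopeptides, had 66.8, 78.2 and 78.1 FPKM in the control libraries and 219.6, 361 and 284 FPKM in the knockout libraries. It was higher in every knockout library (log2 fold change 1.91 ± 0.199 SE, adjusted p = 0.00964 in limma, and 2.02 in replicates 2 and 3 alone, adjusted p = 8.5e-05). Without *Smyd2 fl/fl* replicate 2 or 3, or without *Smyd2 SMC-/-* replicate 3, the adjusted p of *Plod2* was 0.0611, 0.0632 and 0.0622.

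*Cdh11*, or OB-cadherin of mesenchymal cells, had 2.03, 6.54 and 6.72 FPKM in the control libraries and 22.6, 49.8 and 26.3 FPKM in the knockout libraries. The lowest knockout library was above every control library (log2 fold change 2.51 ± 0.449 SE, adjusted p = 0.0455 in limma, and 2.29 in replicates 2 and 3 alone, adjusted p = 0.00663). Of the fits that left out 1 library, the one without *Smyd2 SMC-/-* replicate 1 kept the call of *Cdh11*, and those without *Smyd2 fl/fl* replicates 1, 2 and 3 and *Smyd2 SMC-/-* replicates 2 and 3 gave an adjusted p of 0.0533, 0.136, 0.127, 0.156 and 0.167. *Lox*, which crosslinks collagen and elastin, had 82.6, 327 and 315 FPKM in the control libraries and 347, 1075 and 984 FPKM in the knockout libraries. In both genotypes replicate 1 had the lowest level, and within each pair the knockout was higher (log2 fold change 1.80, adjusted p = 0.199 in limma and 0.00662 with the block, and 1.68 with an adjusted p of 0.000124 in replicates 2 and 3 alone). *Loxl2*, its relative, and *Fn1*, fibronectin, were also higher with the block (log2 fold changes 1.32 and 0.91, adjusted p = 0.0393 and 0.0411 in limma, or 0.419 and 0.532 without it). Without replicate 1 of either group they were 1.35 and 0.87 (adjusted p = 0.0675 and 0.0142 in limma). Leaving out 1 library moved *Lox* between 1.15 and 2.32, *Loxl2* between 0.65 and 2.03 and *Fn1* between 0.28 and 1.5, so the size of these differences depended on single libraries. By their mean over all libraries, the most abundant genes besides *Fn1* were *Bgn* (3552 ± 925 and 3364 ± 292 FPKM, SD, n = 3 each) and *Vim* (1763 ± 44.4 and 1329 ± 130.5 FPKM), with log2 fold changes of −0.04 and −0.41 and an adjusted p of 0.942 and 0.143 in limma. *Vim*, which encodes vimentin, was lower in all knockout libraries and passed the test in replicates 2 and 3 alone (−0.47, adjusted p = 0.0456 in limma), whereas *Bgn* was at −0.22 (adjusted p = 0.291). After quantile normalization of all libraries *Vim* was at −0.12 (adjusted p = 0.677 in limma), so the size of its difference depended on the scaling.

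The mesenchymal genes that were lowest in replicates 2 and 3 alone, chosen for mention once their values had been seen, were *Tgfbi* (−2.94, adjusted p = 3.2e-05 in limma), *Pdgfra* (−2.21, adjusted p = 0.00012), *Postn* (−2.04, adjusted p = 0.00134) and *Thy1* (−1.29, adjusted p = 0.00155). Over all libraries they were at −1.55, −1.66, −1.04 and −2.04, where limma gave an adjusted p of 0.35, 0.0601, 0.47 and 0.115. The groups did not overlap for *Pdgfra*, a receptor of fibroblasts, and *Thy1*, a surface protein of mesenchymal cells, whereas knockout replicate 1 had more *Postn* than any control library (28.4 FPKM) and control replicate 1 had little *Tgfbi* (1.28 FPKM). In the other direction *Lum*, which encodes the matrix proteoglycan lumican, was at 2.57 in replicates 2 and 3 alone (adjusted p = 7.4e-05 in limma) and at 1.82 over all libraries (adjusted p = 0.342). Leaving out *Smyd2 SMC-/-* replicate 1 alone brought *Pdgfra* (−1.96), *Postn* (−1.87), *Thy1* (−1.35) and *Lum* (2.96) past the test, at an adjusted p of 0.0265, 0.0265, 0.0218 and 0.0231 in limma. Leaving out any other single library brought none of them past it. Over the fits without 1 library *Tgfbi* ran from −2.47 to −1.09, *Pdgfra* from −1.96 to −1.4 and *Postn* from −1.87 to −0.45. *Thy1* ran from −2.5 to −1.35 and *Lum* from 1.15 to 2.96.

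**Figure D4:**
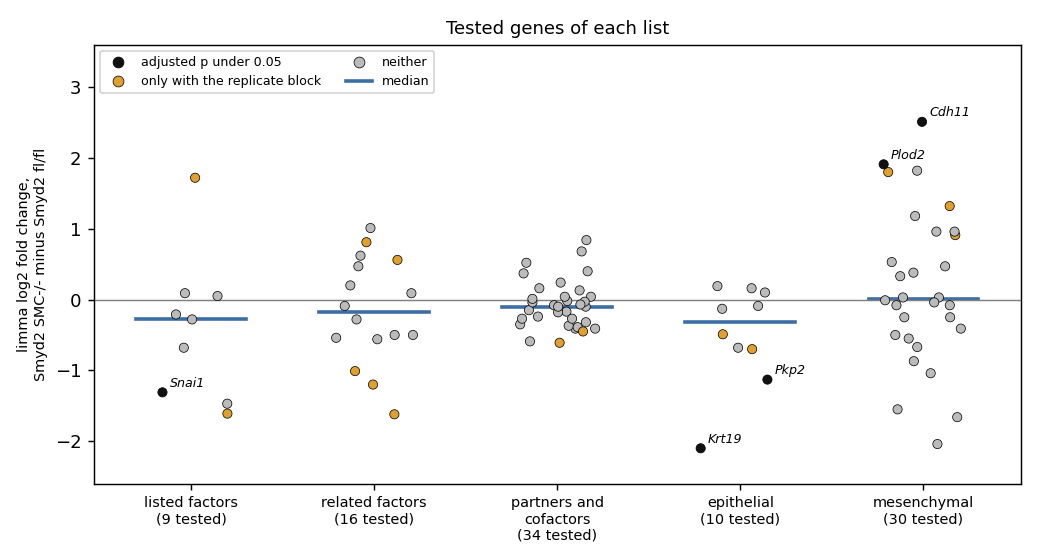
Log2 fold change between *Smyd2 SMC-/-* and *Smyd2 fl/fl* of each tested gene in the 5 lists, colored by whether the gene passed an adjusted p of 0.05 in limma (black), passed it only with the replicate block (orange) or neither (grey), with the list median in blue. The black points are *Snai1*, *Krt19* and *Pkp2* below 0 and *Plod2* and *Cdh11* above it, and the medians lie between −0.31 and 0.01.

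The labelled cell type was set against marker genes. Of 8 smooth muscle genes, *Acta2* was the most abundant, with 761, 682 and 683 FPKM in the control libraries and 201, 268 and 262 FPKM in the knockout libraries. *Acta2* fell by 1.55 on the log2 scale (adjusted p = 0.00803 in limma) and by 1.36 in replicates 2 and 3 alone (adjusted p = 0.000241), and its adjusted p was 0.0541, 0.0615 and 0.0533 without *Smyd2 fl/fl* replicate 2, *Smyd2 fl/fl* replicate 3 or *Smyd2 SMC-/-* replicate 3. *Tagln*, the gene whose promoter drives the Cre, had 80.5, 79.1 and 70.3 FPKM in the control libraries and 12.5, 87.3 and 57.1 FPKM in the knockout libraries (log2 fold change −0.92, adjusted p = 0.496 in limma). That difference rested on knockout replicate 1, since it was −0.11 without that library and −0.08 in replicates 2 and 3 alone (adjusted p = 0.802). The mature contractile markers *Myh11* and *Des* and the coactivator gene *Myocd* lay under 1 FPKM in all libraries, while *Smtn*, another contractile marker, had between 45.9 and 63.1 FPKM. Of the 8 genes, 3 were therefore near 0 in both genotypes. The summed level of the 8 genes, most of it *Acta2*, was 922, 821 and 814 FPKM in the control libraries and 263, 429 and 376 FPKM in the knockout libraries. Of the 5 tested genes 1 was lower and 0 were higher in limma (all tested genes, 1.21% and 1.23%), and 1 was lower and 1 was higher in replicates 2 and 3 alone (17.2% and 11.9%). Over all libraries *Smtn* was at −0.05, *Cnn1* at −0.91 and *Lmod1* at 0.24 (adjusted p = 0.9, 0.399 and 0.817 in limma). Replicates 2 and 3 alone had them at 0.05, −0.07 and 0.83, so that *Cnn1* and *Tagln* pointed the way of *Acta2* over all libraries and were near 0 there, and *Lmod1* was higher (adjusted p = 0.00335, or 0.0489 with a log2 fold change of 0.77 when only *Smyd2 SMC-/-* replicate 1 was left out). With any other single library left out, limma's adjusted p for *Lmod1* was between 0.789 and 0.996.

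By the methods the adventitia was removed and each batch of cells was checked for purity by staining for smooth muscle α-actin. Genes of adventitial fibroblasts and of mesothelium, which share *Pdgfra*, *Lum* and *Dcn* with the mesenchymal list and *Krt19* and *Wt1* with the epithelial and related factors lists, moved with genotype and replicate. The 8 adventitial genes summed to 307, 943 and 810.5 FPKM in the control libraries and to 146, 731 and 712 FPKM in the knockout libraries. *Dcn*, the most abundant by its mean over all libraries though below *Ly6a* in every control library, had 13.9 and 25.6 FPKM in the replicate 1 libraries of *Smyd2 fl/fl* and *Smyd2 SMC-/-* and at least 257 FPKM in the others. *Dpt*, which encodes dermatopontin, had 144, 90.3 and 65.5 FPKM in the control libraries and 3.31, 1.15 and 0.63 FPKM in the knockout libraries (log2 fold change −5.28, adjusted p = 0.00417 in limma, and −5.38 in replicates 2 and 3 alone). It was the one adventitial gene called without the block. With the block 3 of the 8 were lower and 1 was higher, beside 5.72% and 4.72% of all tested genes. The higher one, *Col14a1*, had 6.49, 24.7 and 26.8 FPKM in the control libraries and 64.8, 160.1 and 197 FPKM in the knockout libraries (log2 fold change 2.87, adjusted p = 0.0683 in limma and 0.0032 with the block). It was at 2.74 in replicates 2 and 3 alone (adjusted p = 1.76e-05) and at 3.35 without *Smyd2 SMC-/-* replicate 1 (adjusted p = 0.0419). With any other single library left out, limma's adjusted p for *Col14a1* was between 0.0853 and 0.246.

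All 6 mesothelial genes were present, with a sum of 65.9, 212 and 215 FPKM in the control libraries and 38.7, 308 and 177 FPKM in the knockout libraries. *Upk1b*, the most abundant by its mean over all libraries though below *Krt19* in every control library, had 3.92, 44.0 and 47.7 FPKM in the control libraries and 10.4, 126 and 73.9 FPKM in the knockout libraries. *Msln*, or mesothelin, had 0.52 and 0.74 FPKM in the replicate 1 libraries and between 6.92 and 26 FPKM in the others. In limma 1 of the 6 was lower, *Krt19*, and with the block 1 was lower and 3 were higher, beside 1.21% of all tested genes, and 5.72% and 4.72% with the block. The sums of both lists were lowest in replicate 1 of each genotype. Single genes of the lists varied in other ways: *Pdgfra* (18.1, 31.9 and 29.8 FPKM in controls, 11.8, 4.85 and 7.1 FPKM in knockouts) was lowest in replicate 1 of the controls and highest in replicate 1 of the knockouts, as *Prrx1* was, and *Dpt* was highest in replicate 1 of both, as *Twist2* was. Some markers separated the genotypes, as *Snai1* and *Twist2* did, and the part of the markers in these results was not tested.

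Other cell types had little signal. Of 8 endothelial genes 7 lay under 1 FPKM in all libraries, *Pecam1* and *Cdh5* among them, and *Kdr*, the highest in knockout replicates 2 and 3, reached 5.15 FPKM, with list sums between 1.53 and 5.41 FPKM. Of 8 macrophage genes 5 lay under 1 FPKM, including *Ptprc* and *Adgre1*, and *Cd68* had at most 4.87 FPKM, with list sums between 4.98 and 8.99 FPKM. Schwann cell and neural crest genes summed to at most 2.52 FPKM in the control libraries and to 2.40, 13.6 and 8.58 FPKM in the knockout libraries, mostly from *S100b*, while *Sox10* lay under 1 FPKM. Adipocyte genes summed to between 7.50 and 13.0 FPKM except in *Smyd2 SMC-/-* replicate 1, where *Fabp4* alone had 119 FPKM and *Adipoq* was at 0. Skeletal and cardiac genes summed to 29.8 FPKM in *Smyd2 fl/fl* replicate 1 and to at most 8.36 FPKM in the other libraries, mostly from *Tnnt2*.

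**Figure D5:**
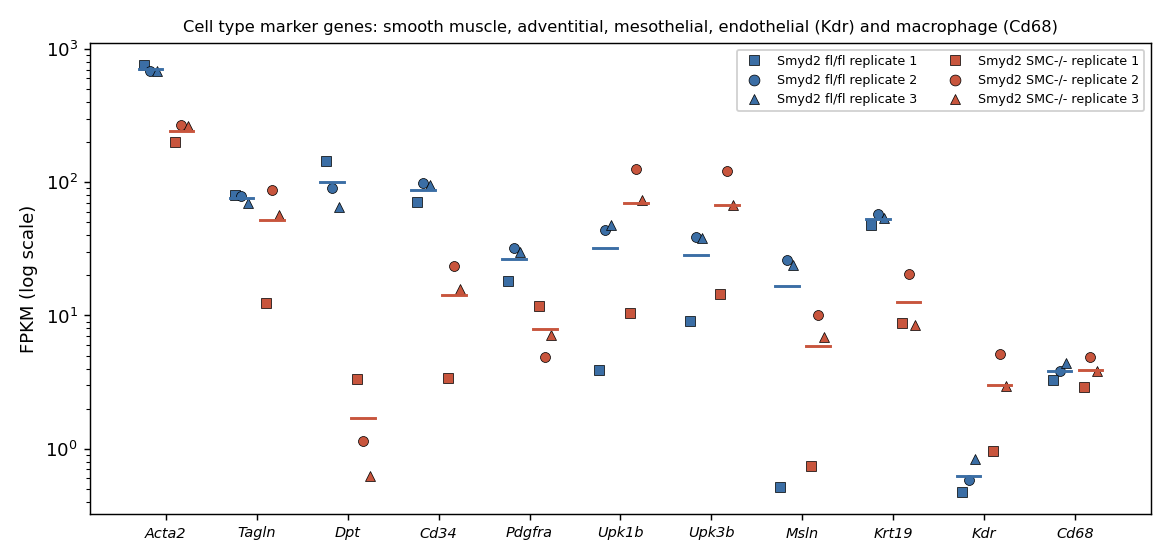
FPKM (log scale) of marker genes in each library, with *Smyd2 fl/fl* in blue and *Smyd2 SMC-/-* in red, symbols for the replicate number and a line at each group mean. *Dpt* lies at 65.5 FPKM or more in every control library and at 3.31 FPKM or less in every knockout library, and *Upk1b*, *Upk3b* and *Msln* are lowest in the replicate 1 libraries of both genotypes.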

How the data were processed

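Paired-end sequencing of poly-A RNA was performed on a BGISEQ-500. Read filtering by SOAPnuke, mapping by HISAT and Bowtie2 and quantification by RSEM were done by the authors (versions and genome build not given in the sources used here), who deposited FPKM to 2 decimals, 1 column per library, with 1125 of 18112 entries lacking a symbol. Depths are approximate: 64.6% to 71.5% of low values per library lay within 0.15 of a whole fragment (30% by chance).

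Groups and replicate numbers came from the labels. Genes averaging 0.5 FPKM or more were compared as log2(FPKM + 1) with limma 3.58.1 in R 4.3.3 (lmFit, eBayes, trend and robust settings, Benjamini-Hochberg adjustment), tested on simulated data. The study names no pairing, so groups were compared without a block and the block is given beside it. Named genes were the listed factors, *Smyd2*, up to 6 genes per list called with or without the block, the 3 with the highest mean over all libraries in each list, cell type markers, and genes said to be chosen once seen. The members and lists were chosen with earlier results of these data known. Annotation was GENCODE M21 (GRCm38). Python 3.11.15, numpy 2.4.6, scipy 1.17.1, pandas 2.3.3 and matplotlib 3.10.9 were used. Alternatives were a pseudocount of 0.1, no filter or a mean of 2 FPKM or more, blocks for the replicate number or for replicate 1, replicates 2 and 3 alone, TPM, quantile normalization, stricter thresholds (adjusted p under 0.01, fold change above 2) and each library left out.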

Additional observations from a re-analysis of the deposited data

How the results depend on the processing

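Of the 9 factors, 1 was called at an adjusted p under 0.05 in limma, *Snai1*. With the replicate block the number was 3, with replicate 1 against 2 and 3 as a block 4, in replicates 2 and 3 alone 5, with a pseudocount of 0.1 FPKM 2 and after rescaling to TPM 2. At an adjusted p under 0.01 and a fold change above 2 it was 0, and over the fits that left out 1 library it was 0 in 4 (without replicate 2 or 3 of either genotype), 1 without *Smyd2 fl/fl* replicate 1 and 5 without *Smyd2 SMC-/-* replicate 1. The number did not change with a mean of 2 FPKM or more, without a filter or with quantile normalization. Some of these fits held fewer libraries, and the cause of the changes was not tested.

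Over all tested genes 306 were called. The number was 1312 with the replicate block, 2550 with replicate 1 as a block, 3650 in replicates 2 and 3 alone and 53 under the stricter thresholds, and from 34 to 686 with 1 library left out. For the related factors, 0 were called without a block, 5 with the replicate block, 7 with replicate 1 as a block, 10 in replicates 2 and 3 alone, 1 with quantile normalization and from 0 to 2 with 1 library left out. Of the partners, 0 were called without a block, 2 with the replicate block, 9 with replicate 1 as a block, 10 in replicates 2 and 3 alone and 0 in each fit without 1 library.

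Of the epithelial genes, 2 were called without a block, 4 with either block, 5 in replicates 2 and 3 alone, 1 after rescaling to TPM, 0 without a filter, 0 under the stricter thresholds and from 0 to 2 with 1 library left out. Of the mesenchymal genes, 2 were called without a block, 5 with the replicate block, 10 with replicate 1 as a block, 16 in replicates 2 and 3 alone (10 lower and 6 higher), 1 with a pseudocount of 0.1 FPKM, 1 without a filter, 1 under the stricter thresholds and from 0 to 6 with 1 library left out. The cause was not tested.

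Among the 9 factors and *Smyd2*, only *Prrx1* turned its direction. Its log2 fold change was 0.05 over all libraries, −0.27 in replicates 2 and 3 alone, −0.22 without *Smyd2 fl/fl* replicate 1, −0.01 without *Smyd2 SMC-/-* replicate 1 and at most 0.18 with 1 library left out, and the cause was not tested. The other 8 factors and *Smyd2* kept their direction in all settings. Of the other named genes, with 1 library left out *Sox4* ran from −0.16 to 0.38, *Tead1* from −0.06 to 0.21, *Id3* from −0.36 to 0.11, *Bgn* from −0.28 to 0.09, *Tjp1* from −0.26 to 0.10, *Smtn* from −0.20 to 0.03, *Lmod1* from −0.06 to 0.77 and *Cd68* from −0.15 to 0.14, so their direction is not settled. *Dcn* ran from −0.89 to 1.79 in these fits, which have no block, but was higher within each same-numbered pair (by 0.84, 0.3 and 0.45). Its log2 fold change of 0.53 had an adjusted p of 0.89 in limma and 0.0702 with the replicate block. With replicate 1 against the others as the block it was 0.0418 in limma. In replicates 2 and 3 alone *Dcn* was at 0.37 (adjusted p = 0.0791 in limma). The median log2 fold change over all tested genes was −0.02 on FPKM and 0.10 after rescaling to TPM, a shift of 0.11, so differences of that size depend on the scaling. Low genes moved further. *Msx1* shifted by 0.69 to 2.41 (adjusted p = 0.0378 in limma) and *Smyd2* by −0.29 to −1.77 (adjusted p = 0.121). For a transcript of 2000 bases 1 fragment was worth 0.0259 to 0.0301 FPKM, and *Msx1* in *Smyd2 fl/fl* rested on about 8 to 17 fragments. With 3 libraries a group, no exact permutation p under 0.1 was possible. There was also no statement that the libraries came from separate animals.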

Other observations

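Among the related factors and partners that were named after their values were seen, *Dlx5*, a homeobox gene of craniofacial and bone development, was at 0 in all *Smyd2 fl/fl* libraries and at 0.39, 0.09 and 0.05 FPKM in *Smyd2 SMC-/-* replicates 1, 2 and 3, under the level required for a test. *Foxd1*, a forkhead factor of stromal precursors, measured 1.42, 1.37 and 1.45 FPKM against 9.04, 2.21 and 2.57 FPKM, with a log2 fold change of 1.01 (adjusted p = 0.257 in limma) that was 0.49 in replicates 2 and 3 alone (adjusted p = 0.0372). *Meis1*, a homeobox cofactor, measured 3.77, 5.24 and 4.56 FPKM against 10.1, 7.2 and 9.41 FPKM, with a log2 fold change of 0.84 (adjusted p = 0.0692 in limma, 0.0555 with the replicate block). It was 0.65 in replicates 2 and 3 alone (adjusted p = 0.0161).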
